A study of Homo sapiens with 12 samples.

Results

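The genes described here are 35 genes of G2 phase and mitosis, measured in differentiated Caco-2 cells after exposure to silver. They were given as a list by name, and each was read from the probe set that the platform annotation pairs with that symbol only; where several exist, the probe set with the highest mean over the 12 arrays was used. All 35 were found, among 19775 genes in all. Caco-2 is an established human colon carcinoma line which, when left confluent, stops dividing in large part and takes on features of small-intestinal enterocytes. The cells were of passage 22, had been kept for 21 days after confluence in 75 cm2 flasks, and spent the last 24 h in 20 mL of DMEM with 1% ITS, a supplement of insulin, transferrin and selenium. In that medium, 3 samples received nothing further, 3 received surfactant coated silver nanoparticles (AgPURE) at 2.5 µg/mL, 3 the same particles at 25 µg/mL, and 3 received silver ions as AgNO3 at 0.5 µg/mL. There was no group with the coating surfactant and no silver. Serum at 10% was listed for all 12 samples. Each sample was hybridized to 1 array. Since the labels do not name separate cultures within a group, a p-value here measures array-to-array spread that could be technical.

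Entry into mitosis is driven by the kinase CDK1 bound to cyclin A or cyclin B and switched on by the CDC25 phosphatases. Aurora and Polo-like kinases, kinesin motors and microtubule-binding proteins then build the spindle, the checkpoint kinases hold back anaphase until kinetochores are attached, and the anaphase-promoting complex (APC/C) ends mitosis by marking securin and cyclin B for destruction. The genes for these proteins are transcribed in a wave in G2. They are controlled by complexes that contain NF-Y, which binds CCAAT boxes. The DREAM and MMB-FOXM1 complexes also control them, through a short element, the cell cycle homology region (CHR). In a bulk sample, fewer cells in G2 and mitosis and less of each RNA per cell cannot be told apart.

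The promoter letters of the members are shown first, as a property that the list of names did not use. RefSeq promoter windows of 300 bases (GRCh38.p14, 250 bases before and 50 after the start site) were matched by symbol for 30 of the 35 members, in 40 windows, and AURKA, TTK, UBE2C, BIRC5 and TPX2 had no entry. The letters CCAAT, on either strand, were in 31 of these 40 windows (77.5%) and in 34.6% of all 35116 windows. The CHR letters, TTTGAA in the common form and TTCGAA in a rarer one, on either strand, stood in 25 of the 40 windows (62.5%), against 16.4% of all windows. Both kinds were present in 22 windows (55%), against 6.38% of all. The 150 bases before the start site are printed below for 6 members, with CCAAT boxes and CHR letters of either strand in capitals. KIF20A (chr5:138178962-138179111, plus strand) and NUSAP1 (chr15:41332731-41332880, plus strand) had the largest falls at 25 µg/mL, CCNB2 (chr15:59104996-59105145, plus strand) and MKI67 (chr10:128126424-128126573, minus strand) are members whose windows hold both kinds of letters, and ECT2 (chr3:172750576-172750725, plus strand) and ANLN (chr7:36389712-36389861, plus strand) are the members that were called higher.
KIF20A: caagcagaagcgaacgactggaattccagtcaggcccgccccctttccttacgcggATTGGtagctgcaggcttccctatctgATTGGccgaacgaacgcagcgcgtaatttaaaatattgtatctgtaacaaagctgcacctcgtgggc
NUSAP1: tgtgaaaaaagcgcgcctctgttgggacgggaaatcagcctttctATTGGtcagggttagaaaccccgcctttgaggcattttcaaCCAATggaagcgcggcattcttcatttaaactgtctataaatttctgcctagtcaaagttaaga
CCNB2: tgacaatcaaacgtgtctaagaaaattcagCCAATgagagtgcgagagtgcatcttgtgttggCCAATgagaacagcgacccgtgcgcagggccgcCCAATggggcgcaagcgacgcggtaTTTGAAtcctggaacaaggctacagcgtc
MKI67: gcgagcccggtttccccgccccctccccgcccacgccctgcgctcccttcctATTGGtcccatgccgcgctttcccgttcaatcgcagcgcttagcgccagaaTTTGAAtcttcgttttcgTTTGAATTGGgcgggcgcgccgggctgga
ECT2: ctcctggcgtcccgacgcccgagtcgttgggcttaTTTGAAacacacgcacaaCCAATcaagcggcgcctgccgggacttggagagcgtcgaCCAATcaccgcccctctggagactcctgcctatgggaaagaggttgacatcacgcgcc
ANLN: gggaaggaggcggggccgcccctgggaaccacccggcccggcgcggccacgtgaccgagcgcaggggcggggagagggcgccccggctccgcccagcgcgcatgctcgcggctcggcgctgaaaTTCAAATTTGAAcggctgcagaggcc
KIF20A had a pair of CCAAT boxes, read on the other strand as ATTGG, and no CHR letters in its window, whereas CCNB2 had 4 CCAAT boxes in its window, 3 of them printed, followed by a CHR match. In MKI67 the second CHR match overlaps a CCAAT box on the other strand. The window of NUSAP1 held both kinds of letters too, with 3 CCAAT boxes and 1 CHR match. That CHR match lies after the start site, so it is not in the printed bases. ANLN had no CCAAT in its window, and its CHR matches, 1 on each strand, abut. ECT2 had 3 CCAAT boxes and 2 CHR matches in the window that is printed in part. Its second window, further downstream, had no CCAAT and 2 CHR matches.

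**Figure D1:**
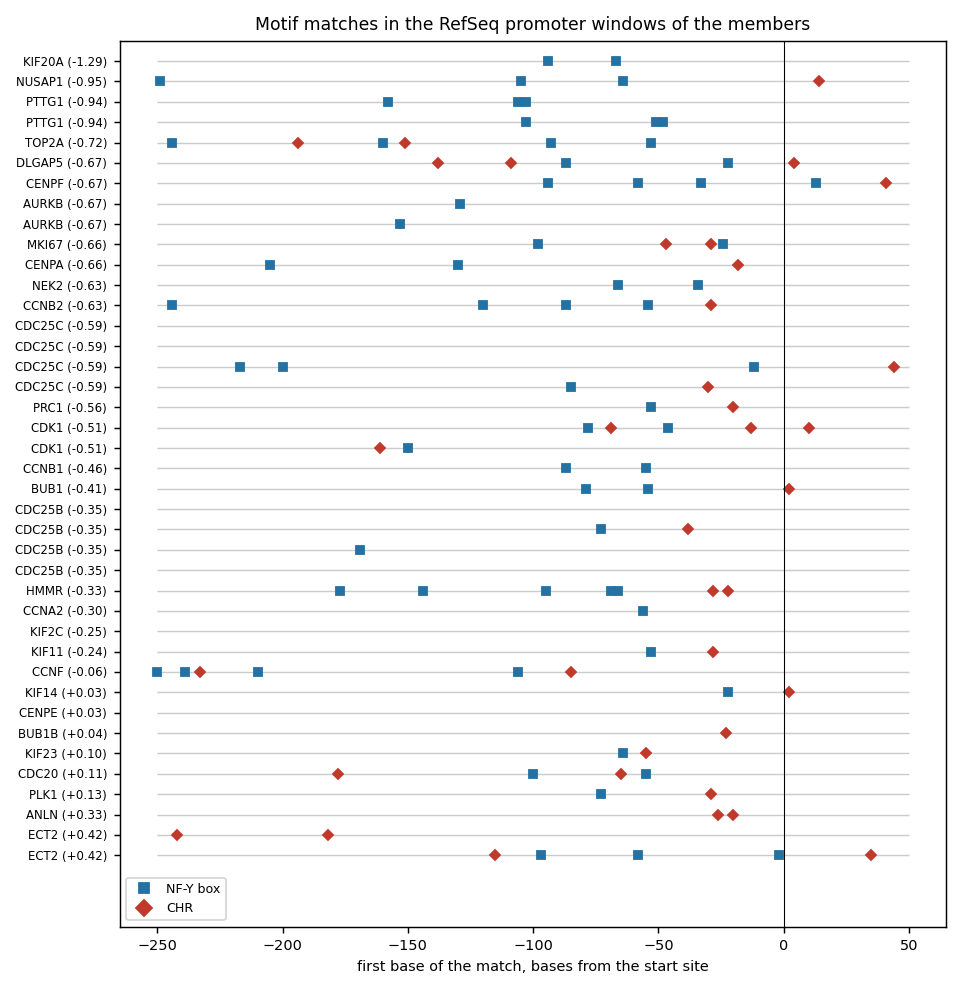
Motif matches in the 40 RefSeq promoter windows of the 30 members that have an entry, drawn by distance of the first base of the match from the start site in bases (x axis), with NF-Y boxes (CCAAT) as blue squares and CHR letters as red diamonds. Each line is 1 window, labelled with the gene and its log2 difference between 25 µg/mL nanoparticles and medium, lowest at the top. Of 66 matches to the NF-Y box, 51 lie within the 150 bases before the start site of their window. Where windows of a gene overlap, the same box is counted in each.

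When members with and without a fall at 25 µg/mL (below) were set side by side, all 19 called lower that have an entry held CCAAT in at least 1 window, and 7 of 11 other members did (63.6%). CHR letters were in 13 of the 19 (68.4%) and in 9 of the 11 (81.8%). These are counts over few genes, some with several windows, and were not tested. Over all 27305 genes with an entry, 39.7% held CCAAT and 19.5% CHR letters in at least 1 window.

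Most of these 35 genes were lower in cells exposed to silver nanoparticles at 25 µg/mL. By limma, 22 of the 35 members fell and 2 rose at an adjusted p under 0.05, while 11 were not called, in a comparison in which 33.4% of all genes were called, 19.3% lower and 14.1% higher. The members called lower thus made up 62.9% of the list and those called higher 5.71%. Since the members were chosen with earlier results of these data known, these shares are a description and not a test of the list. The median log2 difference of the members was -0.46 and that of all genes -0.01. The falls were moderate in size, from 1.23-fold (CCNA2) to 2.45-fold (KIF20A), with 14 members at least 1.5-fold lower and 1 at least 2-fold lower. All 22 members called lower had their 3 arrays at 25 µg/mL below every medium array, as had 3 members that were not called; over all genes, 25.9% had arrays that lay apart in this direction. ECT2, ANLN and BIRC5 had all 3 arrays above medium, as had 19.8% of all genes (under poly-A or hybridization scaling the group differences of all 3 turn negative). The mean log2 value of the 35 members was 9.33, 9.44 and 9.53 on the medium arrays and 9.05, 9.05 and 9.04 at 25 µg/mL.

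**Figure D2:**
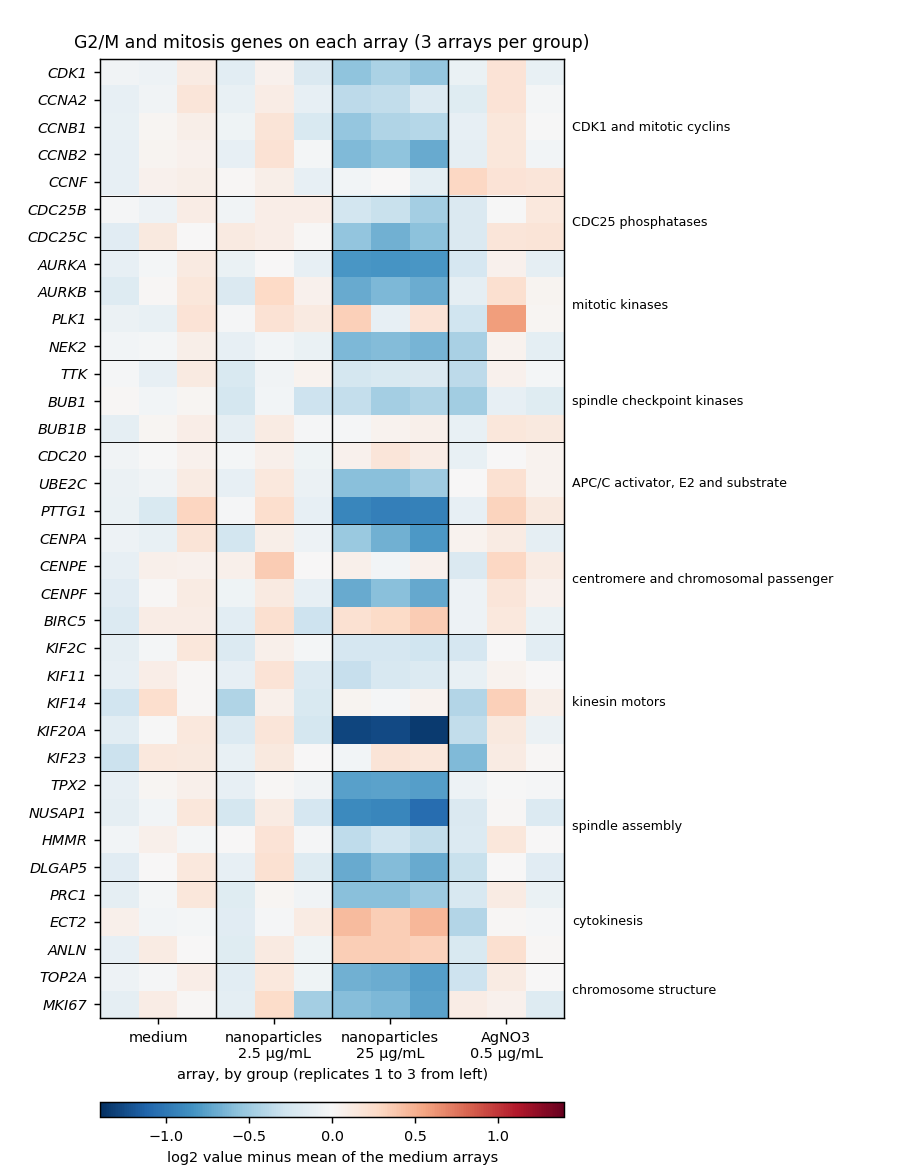
Log2 value of each of the 35 members (rows, grouped by role) on each of the 12 arrays (columns, 3 per group) minus the mean of the medium arrays, blue for lower and red for higher. The 3 arrays at 25 µg/mL are blue for most rows and red for ECT2, ANLN and BIRC5 (differences that turn negative when arrays are scaled on poly-A or hybridization controls), while the 2.5 µg/mL and AgNO3 arrays lie on both sides of the medium mean.

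Among CDK1 and the mitotic cyclins, 4 of 5 fell. CDK1 itself read 11.90, 11.88 and 12.07 on the medium arrays and 11.39, 11.51 and 11.41 at 25 µg/mL, so the groups lay apart (log2 difference -0.51 ± 0.10 SE, adjusted p = 0.00125). CCNB2, a B-type cyclin, went from 10.26, 10.41 and 10.43 to 9.75, 9.81 and 9.66 (-0.63 ± 0.10, adjusted p = 0.000252). CCNB1, the main activator of CDK1 at mitotic entry, read 10.67, 10.80 and 10.85 and then 10.23, 10.35 and 10.37 (-0.46 ± 0.11, adjusted p = 0.00387). The second probe set of CCNB1 gave -0.61. With the mean of all probe sets of a gene in place of the brightest, the call of CDK1 was lost (-0.38, adjusted p = 0.0506), as was that of CCNB2 (-0.18, adjusted p = 0.0679), whose other probe sets are dim, with mean log2 values of 4.48 and 3.94. Other bright probe sets of CDK1 gave -0.51 and -0.48, and a dimmer one, with a mean log2 value of 6.06, gave -0.03. CCNA2, which acts in S phase and G2, was a borderline call (-0.30 ± 0.11, adjusted p = 0.0496). It was lost without medium replicate 2 (adjusted p = 0.0735) or 3 (0.21), without 2.5 µg/mL replicate 1 (0.0603) or 3 (0.0566), without 25 µg/mL replicate 1 (0.142) or 2 (0.129) and without AgNO3 replicate 3 (0.0611). With limma over all probe sets, the second probe set of CCNA2 gave -0.41 (adjusted p = 0.01) and the one used -0.30 (0.0605). With the mean of both, CCNA2 was called by limma (-0.36, adjusted p = 0.012). CCNF, the F-box protein cyclin F, was not called (-0.06 ± 0.09, adjusted p = 0.655), and its arrays at 25 µg/mL (7.31, 7.36 and 7.21) lay among those in medium (7.23, 7.41 and 7.43).

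Both CDC25 phosphatases fell. CDC25C read 7.61, 7.91 and 7.78 in medium and 7.22, 7.10 and 7.20 at 25 µg/mL (-0.59 ± 0.11, adjusted p = 0.000673). CDC25B went from 8.83, 8.78 and 8.95 to 8.59, 8.54 and 8.37 (-0.35 ± 0.10, adjusted p = 0.013), a call lost without medium replicate 3 (adjusted p = 0.0586) or without 25 µg/mL replicate 3 (0.0651).

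Of the mitotic kinases, 3 of 4 fell. AURKA, which matures centrosomes and builds the spindle poles, read 11.21, 11.29 and 11.45 in medium and 10.51, 10.49 and 10.51 at 25 µg/mL, 1.75-fold lower (-0.81 ± 0.09, adjusted p = 1.13e-05), and another bright probe set of the gene gave -0.78. AURKB, the kinase of the chromosomal passenger complex, went from 8.50, 8.70 and 8.84 to 7.97, 8.05 and 7.99 (-0.67 ± 0.13, adjusted p = 0.00069). In the mean of its probe sets, the other of which has a mean log2 value of 4.78, close to the median of all probe-set values (4.75), AURKB was not called (-0.35, adjusted p = 0.0756). NEK2, a centrosomal kinase, read 9.27, 9.28 and 9.39 and then 8.68, 8.70 and 8.66 (-0.63 ± 0.11, adjusted p = 0.000283). PLK1 was not called (0.13 ± 0.18, adjusted p = 0.645). With 5.49, 5.47 and 5.76 in medium and 5.90, 5.45 and 5.76 at 25 µg/mL, its probe set was the dimmest of the members. The 95% interval ran from -0.25 to 0.51, but values this close to the median of all probe sets may partly read background, so it sets no bound on the transcript.

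Of the 3 spindle checkpoint kinases, 1 fell. BUB1 went from 9.47, 9.41 and 9.48 to 9.12, 8.97 and 9.03 (-0.41 ± 0.11, adjusted p = 0.00667), but the mean of its 5 probe sets, of which the other 4 have mean log2 values of 3.78 to 4.76, gave -0.04 (adjusted p = 0.763). TTK, the kinase MPS1 that starts checkpoint signalling, was not called (-0.22 ± 0.11, adjusted p = 0.161), although its arrays at 25 µg/mL (9.42, 9.46 and 9.47) lay below those in medium (9.65, 9.55 and 9.80). BUB1B, which encodes the checkpoint protein BUBR1, was among the 3 members with the smallest differences. It read 9.10, 9.26 and 9.32 in medium and 9.21, 9.28 and 9.30 at 25 µg/mL (0.04 ± 0.10, 95% interval -0.17 to 0.25).

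Around the APC/C, its E2 enzyme and its substrate fell and its activator was not called. PTTG1, which encodes securin, read 11.08, 10.96 and 11.47 in medium and 10.26, 10.21 and 10.22 at 25 µg/mL, 1.92-fold lower (-0.94 ± 0.14, adjusted p = 9.24e-05). UBE2C went from a mean of 11.88 ± 0.10 (SD, n = 3) to 11.32 ± 0.05, with no overlap of the arrays (-0.56 ± 0.09, adjusted p = 0.000338). CDC20, the activator of the APC/C in mitosis, had 9.66, 9.70 and 9.77 and then 9.77, 9.88 and 9.81 (0.11 ± 0.08, adjusted p = 0.327), and its 95% interval ran from -0.06 to 0.28. The suffix of the probe sets of PTTG1 and CENPA marks probes that may also match related sequences.

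At the centromere, CENPF and CENPA fell. CENPF, a kinetochore protein that builds up in G2, read 9.81, 9.99 and 10.09 in medium and 9.26, 9.38 and 9.25 at 25 µg/mL (-0.67 ± 0.10, adjusted p = 0.000109). CENPA, the histone H3 variant of centromeric nucleosomes, went from 7.37, 7.34 and 7.62 to 6.92, 6.77 and 6.64 (-0.66 ± 0.11, adjusted p = 0.000341). CENPE, a kinetochore motor, was not called and its arrays overlapped (7.44, 7.63 and 7.62, then 7.63, 7.52 and 7.62; 0.03 ± 0.12, 95% interval -0.24 to 0.29). BIRC5, which encodes survivin, another part of the chromosomal passenger complex with AURKB, lay higher on all 3 arrays (8.75, 8.81 and 8.89, against 8.35, 8.64 and 8.64) and was not called (0.28 ± 0.13, adjusted p = 0.111).

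Of 5 kinesin motors, read from their brightest probe sets, KIF20A was called lower against medium and KIF2C came close. KIF20A, which carries the passenger complex to the midzone in anaphase, had the largest fall of all members. It read 9.70, 9.84 and 10.00 in medium and 8.56, 8.59 and 8.51 at 25 µg/mL, a gap of over 1 log2 unit between the closest arrays (-1.29 ± 0.13, adjusted p = 3.54e-06). KIF2C, a microtubule depolymerase, and KIF11, which pushes the spindle poles apart, lay below medium on all arrays and were not called (-0.25, adjusted p = 0.0671, and -0.24, adjusted p = 0.0891). The other probe set of KIF2C, with a mean log2 value of 7.75, gave -0.55 (adjusted p = 0.003 over all probe sets), and with the mean of both KIF2C was called (-0.40, adjusted p = 0.0056). KIF2C was also called without dim genes (adjusted p = 0.0416), with the intensity trend (0.0317), with array weights (0.044) and without medium replicate 1 (0.0413), and KIF11 without 2.5 µg/mL replicate 2 (0.0448). KIF14 (0.03, adjusted p = 0.933) and KIF23, a part of centralspindlin (0.10, adjusted p = 0.706), had overlapping arrays, and their intervals, -0.34 to 0.40 and -0.26 to 0.47, were among the widest of the members. KIF14 read 7.16, 7.67 and 7.45 in medium and 7.47, 7.41 and 7.48 at 25 µg/mL.

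All 4 spindle assembly genes fell. NUSAP1, which bundles microtubules near chromosomes, read 10.78, 10.87 and 11.07 in medium and 10.02, 10.00 and 9.84 at 25 µg/mL, 1.93-fold lower (-0.95 ± 0.12, adjusted p = 1.78e-05), and its second probe set also gave -0.95. TPX2, which activates AURKA on microtubules, went from 10.32, 10.46 and 10.50 to 9.67, 9.68 and 9.66 (-0.75 ± 0.08, adjusted p = 4.18e-06). DLGAP5, a partner of AURKA in spindle building, read 9.22, 9.39 and 9.53 and then 8.68, 8.77 and 8.67 (-0.67 ± 0.12, adjusted p = 0.000412). HMMR, a spindle protein that also binds hyaluronan, fell least (-0.33 ± 0.10, adjusted p = 0.0153), and leaving out medium replicate 2 ended its call (adjusted p = 0.0604).

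The cytokinesis genes went both ways. PRC1, which cross-links the midzone microtubules, fell from 9.67, 9.77 and 9.96 to 9.22, 9.21 and 9.29 (-0.56 ± 0.10, adjusted p = 0.000674). ECT2, the exchange factor that activates RhoA at the division plane, rose from 10.25, 10.14 and 10.15 to 10.62, 10.53 and 10.65 (0.42 ± 0.11, adjusted p = 0.00885), while scaling on poly-A controls gave -0.19 and scaling on hybridization controls -0.005. ANLN, the scaffold anillin of the contractile ring, rose from 9.58, 9.81 and 9.69 to 10.04, 10.04 and 10.01 (0.33 ± 0.11, adjusted p = 0.0323), with -0.28 and -0.093 after these scalings. Further probe sets gave 0.38 for ECT2 and 0.33 for ANLN. ANLN was no longer called without medium replicate 1 (adjusted p = 0.117) or 3 (0.076) and without 25 µg/mL replicate 1 (0.076), 2 (0.0779) or 3 (0.0648).

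Both chromosome genes fell. TOP2A, the topoisomerase that untangles sister chromatids, read 11.05, 11.10 and 11.21 in medium and 10.45, 10.42 and 10.35 at 25 µg/mL (-0.72 ± 0.11, adjusted p = 0.00013). MKI67, which encodes the proliferation antigen Ki-67, went from 9.12, 9.35 and 9.27 to 8.65, 8.62 and 8.50 (-0.66 ± 0.15, adjusted p = 0.0028), and its 3 other probe sets gave -0.77, -0.58 and -0.82. Over all members that were called, 25 of 29 other probe sets had the sign of the one used; 9 of the 29 were dim, below the median of all probe-set values, and none of these 9 was called, while of the 20 brighter ones 19 had the same sign and 15 of these were called in it.

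**Figure D3:**
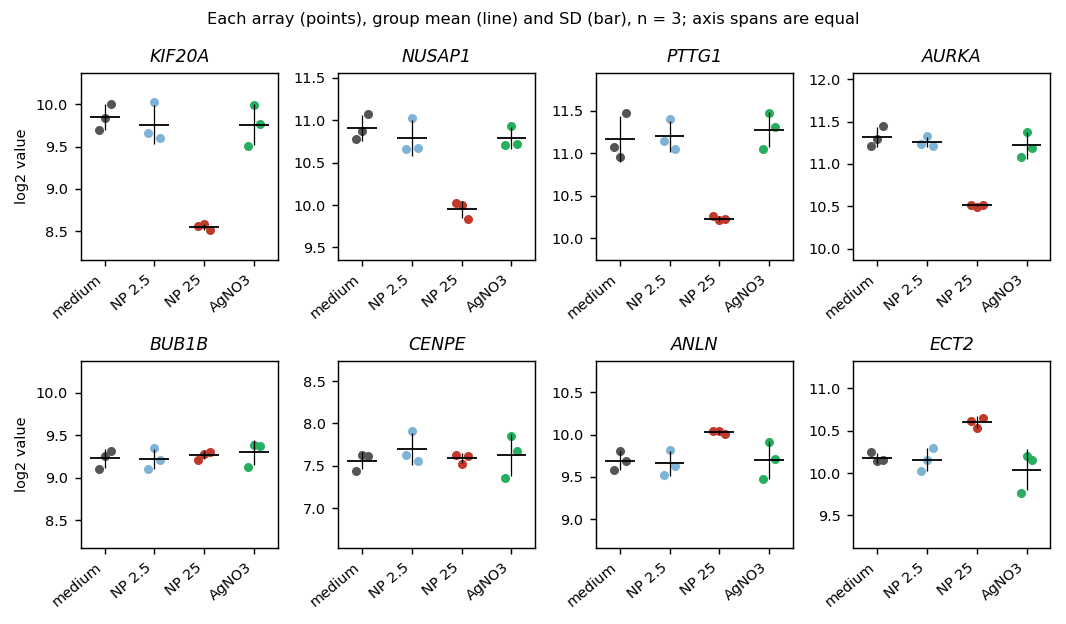
Log2 value on each array (points) of 4 members with large falls (KIF20A, NUSAP1, PTTG1 and AURKA), 2 with small differences (BUB1B and CENPE) and the 2 called higher (ANLN and ECT2), with group means (lines) and SD (bars, n = 3). The 25 µg/mL points (NP 25) lie below all others for the first 4 genes and above all others for ANLN and ECT2, where scaling on poly-A or hybridization controls turns the difference from medium negative.

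Neither the lower particle dose nor the ions gave a called member. At 2.5 µg/mL none of the 35 members was called by limma, as was none of all genes (0%), and 0 members and 4.55% of all genes had an unadjusted p under 0.05. The log2 differences from medium lay between -0.20 (BUB1) and 0.14 (CENPE), and the 95% intervals of all members between -0.55 (KIF14) and 0.48 (PLK1). KIF20A, for example, read 9.66, 10.02 and 9.60 at 2.5 µg/mL, around its values in medium. With AgNO3 at 0.5 µg/mL, none of the members and none of all genes (0%) was called, and 2 members and 6.24% of all genes had an unadjusted p under 0.05. CCNF was the higher of these (0.21, unadjusted p = 0.0292 by limma), at 7.64, 7.54 and 7.52, and BUB1 the lower (-0.26, unadjusted p = 0.0278 by limma), at 8.96, 9.34 and 9.28. The intervals of the members ran from -0.52 (KIF23) to 0.48 (PLK1). The mean of the 35 members was 9.31, 9.55 and 9.34 on the 2.5 µg/mL arrays and 9.24, 9.57 and 9.42 on the AgNO3 arrays, a wider spread than the 9.04 to 9.05 at 25 µg/mL.

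**Figure D4:**
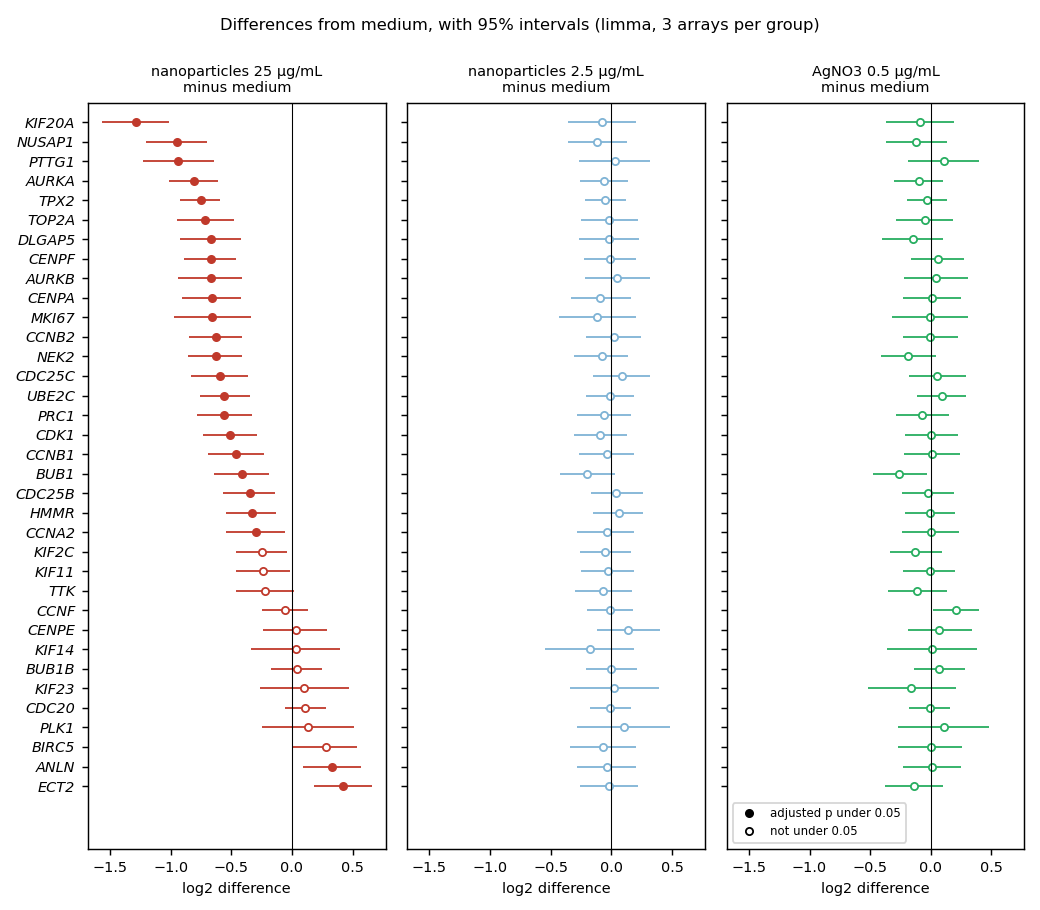
Log2 difference from medium of each member (points) with its 95% interval (lines) for 25 µg/mL nanoparticles, 2.5 µg/mL nanoparticles and 0.5 µg/mL AgNO3, ordered by the first; filled points have an adjusted p under 0.05. Filled points are present only at 25 µg/mL, from KIF20A at -1.29 to ECT2 at 0.42, and ECT2 and ANLN turn negative under poly-A or hybridization scaling.

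The high particle dose was also compared with the other exposures directly. Against 2.5 µg/mL, the lower dose of the same particles, 20 members were lower and 3 higher, where 20.3% and 13.7% of all genes, 34% in all, were called; the median of the members was -0.42. KIF20A differed by -1.21, PTTG1 by -0.97 and NUSAP1 by -0.84 (adjusted p = 6.07e-06, 6.71e-05 and 5.22e-05). All 20 members called lower here were also called lower against medium, and CCNA2 (-0.26, adjusted p = 0.0908) and BUB1 (-0.22, adjusted p = 0.133) were not called. BIRC5 was called higher than at 2.5 µg/mL (0.35, adjusted p = 0.0452) besides ECT2 (0.44) and ANLN (0.37), and under poly-A scaling these differences turned to -0.40, -0.31 and -0.37. Under hybridization scaling they were 0.002, 0.097 and 0.027, and none was called. The BIRC5 call held only where the array left out was medium replicate 1, 2.5 µg/mL replicate 2 or AgNO3 replicate 1 or 2, with adjusted p from 0.0507 to 0.198 without any of the others, and ANLN was not called without 2.5 µg/mL replicate 1 (0.0842) or 3 (0.053). Against AgNO3, at a lower mass dose of silver, 21 members were lower and 2 higher, where 18.6% and 13.7% of all genes, 32.3% in all, were called, with a median of -0.45. KIF20A differed by -1.20 and PTTG1 by -1.05 (adjusted p = 7.69e-06 and 3.98e-05), and CCNF was lower (-0.28, adjusted p = 0.0259), its AgNO3 arrays being the highest of the 12. The CCNF call was lost without 25 µg/mL replicate 1 (adjusted p = 0.0554) or 3 (0.099) or AgNO3 replicate 1 (0.0779). Without 1 array of these groups the calls against AgNO3 were also lost for CDC25B (25 µg/mL replicate 3 or AgNO3 replicate 2 or 3, adjusted p from 0.0502 to 0.0958), HMMR (25 µg/mL replicate 1 or 3 or AgNO3 replicate 2, 0.0521 to 0.0897) and ANLN (any 25 µg/mL replicate or AgNO3 replicate 1 or 3, 0.0717 to 0.156). CCNA2 (-0.30, adjusted p = 0.0549) and BUB1 (-0.16, adjusted p = 0.296) were not called. With the mean of probe sets, CCNA2 was called lower in both comparisons (adjusted p = 0.0291 against 2.5 µg/mL and 0.0117 against AgNO3), and KIF2C in that against 2.5 µg/mL (0.0172). These comparisons share the 25 µg/mL arrays with that against medium, so they are not independent of it. Particles at 2.5 µg/mL and AgNO3 gave no called member and no called gene (0%), with 1 member, CCNF, and 8.77% of all genes at an unadjusted p under 0.05 by limma.

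Further genes of the same pathway, from 4 lists of names, went both ways at 25 µg/mL in the authors' normalization. Under poly-A scaling no gene of these 4 lists was called higher, where 0.905% of all genes were higher and 71.2% lower. Under hybridization scaling 1 was called higher, the kinetochore gene MIS12 (0.53), where 2.57% of all genes were higher and 64.9% lower. The shares called in the lists, in the order given here, were 45%, 38.9%, 47.4% and 37.9%, beside 33.4% of all genes (14.1% higher and 19.3% lower), and their medians lay within 0.07 of that of all genes. Of 20 measured APC/C and checkpoint genes, 4 rose and 5 fell (median 0.03), led by the APC/C subunits ANAPC10 (0.65) and ANAPC7 (0.55) and by CDC26 (0.41); with the mean of probe sets 3 fell. Among 36 kinetochore and centromere genes, 11 rose and 3 fell (median 0.06), with the largest rises in MIS12 (0.96, adjusted p = 9.18e-07), ZWILCH (0.72) and CENPO (0.67). Without 25 µg/mL replicate 1, 7 of them rose and 1 fell, and without medium replicate 2, 10 rose and 1 fell. Of 19 condensin and cohesin genes, 6 rose and 3 fell (median 0.02); the condensin subunit NCAPD2 fell by 0.85 on the log2 scale, and WAPL, which releases cohesin, rose by 0.72. Without medium replicate 3 or 25 µg/mL replicate 1 or 3, 3 of these genes rose. In 29 other spindle, centrosome and cytokinesis genes, 4 rose and 7 fell (median -0.06), among them the augmin subunits HAUS8 (0.71) and HAUS2 (0.60) and the dynein regulator NDE1 (-0.61). Without medium replicate 1 or 2 or 25 µg/mL replicate 1, 2 of them rose. Under poly-A scaling CDC26, HAUS2, ANAPC7 and the cohesin regulator CDCA5 (0.51 in the authors' normalization) turned to between -0.21 and -0.02.

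The regulators of these genes were also read. FOXM1, the transcription factor of the G2 wave, fell from 9.02, 9.16 and 9.01 to 8.57, 8.67 and 8.67 (-0.43 ± 0.08, adjusted p = 0.000725). MYBL2, the MYB subunit of the MMB complex, was not called (0.12 ± 0.11, adjusted p = 0.462). Of the 28 genes of G2/M transcription and entry control, 7 rose and 8 fell (median 0.06), where 14.1% of all genes were higher and 19.3% lower. Under poly-A scaling 0 of them rose and 17 fell, where 0.905% of all genes were higher and 71.2% lower. Under hybridization scaling 0 rose and 16 fell, where 2.57% of all genes were higher and 64.9% lower. CDKN3, a phosphatase that acts on CDKs, fell 2.05-fold (-1.03), TFDP2, a dimerization partner of E2F factors, 1.80-fold (-0.85, or -0.49 with the mean of its probe sets), and RBL2, the pocket protein p130, 1.77-fold (-0.82). Of 13 CDK inhibitors and arrest genes measured, 4 rose and 3 fell (median 0.02). Under poly-A scaling 1 of these 13 rose and 8 fell, and under hybridization scaling 4 rose and 7 fell. GADD45B, a stress-induced gene, rose 5.15-fold from 7.71, 7.84 and 7.67 to 10.21, 10.11 and 9.98 (2.37 ± 0.12, adjusted p = 7.25e-09), and remained called under poly-A scaling at 1.75. CDKN1A, which encodes the inhibitor p21, rose from 6.67, 6.98 and 6.80 to 7.67, 7.97 and 7.83 (1.01 ± 0.12, adjusted p = 1.14e-05), and GADD45G rose by 0.85 (adjusted p = 0.000956); both were still positive under poly-A scaling (0.39 and 0.24) but not called. CDKN1B, the inhibitor p27, named here after its values were seen, fell from 11.54, 11.48 and 11.54 to 10.82, 10.64 and 10.59 (-0.84, adjusted p = 1.23e-05).

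Genes of the preceding phase went the other way in the authors' normalization. Of 45 measured G1/S and DNA replication genes, 28 rose and 3 fell (median 0.37), where 14.1% of all genes were higher and 19.3% lower. Under poly-A scaling 1 rose and 10 fell (median -0.25), where 0.905% of all genes were higher and 71.2% lower, and under hybridization scaling 9 rose and 8 fell (median -0.06), where 2.57% were higher and 64.9% lower. The median of the list lay 0.38 above that of all genes in each of the 3, a gap that such scaling keeps by construction. MCM10, which joins the replicative helicase, rose 2.28-fold, from 8.15, 8.32 and 8.26 to 9.43, 9.41 and 9.46 (1.19 ± 0.11, adjusted p = 1.25e-06), and was still called under poly-A scaling (0.58, adjusted p = 0.0232). CDC6, a licensing factor, rose 1.96-fold, GINS3, a helicase subunit, 2.00-fold, CCNE2, cyclin E2, 1.78-fold and CCND1, cyclin D1, 1.86-fold; under poly-A scaling their log2 differences were 0.36, 0.38, 0.22 and 0.28 and none was called. The array means of the 22 members called lower were 9.87, 9.96 and 10.08 in medium and 9.34, 9.34 and 9.30 at 25 µg/mL; those of the G1/S genes were 8.66, 8.79 and 8.79, and 9.08, 9.15 and 9.17. In promoter windows, CCAAT was present in 24 of 37 of the G1/S genes with an entry (64.9%) and CHR letters in 3 of them (8.11%).

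**Figure D5:**
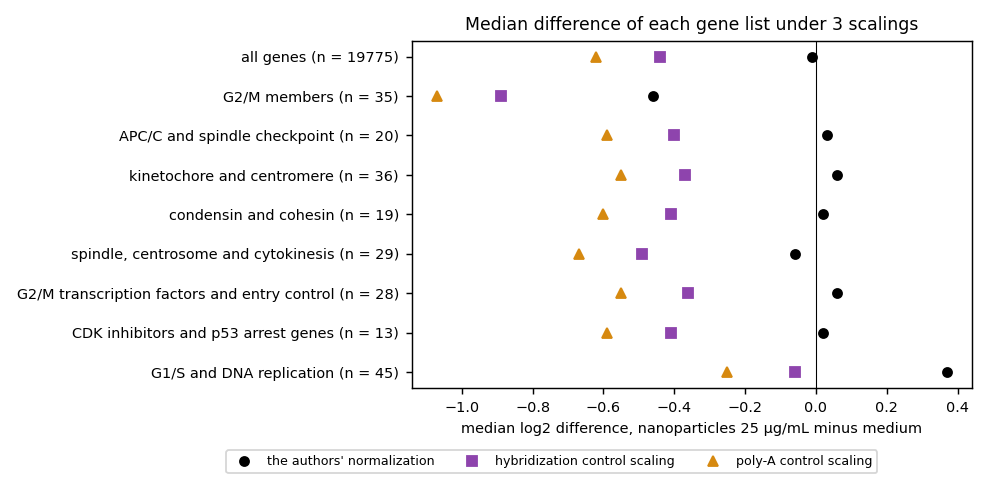
Median log2 difference between 25 µg/mL nanoparticles and medium of all genes, the members and each pathway list (n genes in brackets), in the authors' normalization (circles) and after scaling on hybridization controls (squares) or poly-A controls (triangles). The members lie 0.45 below all genes in each and the G1/S list 0.38 above. The scalings keep these gaps by construction, as they shift all genes of an array alike. The G1/S list lies at 0.37 in the authors' normalization and below 0 under both scalings.

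Directions above are relative to the authors' normalization, which sets the arrays' distributions nearly equal. At 25 µg/mL the poly-A, hybridization and ribosomal RNA control probe sets were higher than in medium by 0.61, 0.43 and 0.64; the poly-A means were 6.21, 5.56 and 6.31, against 5.31 to 5.54 in medium. Scaling on poly-A or hybridization controls moved the median of all genes to -0.62 or -0.44 and that of the members to -1.07 or -0.89, with 31 or 29 members lower and 0 higher, where 71.2% or 64.9% of all genes were lower and 0.905% or 2.57% higher. After poly-A scaling, 32 members were lower than at 2.5 µg/mL and 33 lower than with AgNO3, as were 85.3% and 87.8% of all genes. None was higher than in these groups under either scaling, where 0.678% and 0.713% (poly-A) or 2.88% and 2.52% (hybridization) of all genes were. All 22 members called lower kept their call and direction under both scalings. By construction, both lower all genes on the 25 µg/mL arrays, so this is no separate support for the falls. The 3' to 5' differences of ACTB (0.41 to 0.69, against 0.59 to 0.70 in medium) and GAPDH (0.13 to 0.22, against 0.10 to 0.23) overlapped those in medium. Arrays of a group correlated with r of 0.992 to 0.996 across probe sets, and medium with 25 µg/mL arrays with r of 0.978 to 0.981. Of 15 enterocyte markers, 11 lay above the median of all probe-set values (4.75) in medium, with VIL1 (10.38), CDH1 (12.46) and EPCAM (13.20) well above it, and SI (3.56) and KRT20 (4.69) below it. At 25 µg/mL, 6 of the 15 fell and 1 rose, where 19.3% of all genes were lower and 14.1% higher. The array mean of these markers was 8.09 to 8.12, against 8.37 to 8.47 in medium. Goblet cell markers (0 of 5 called), leukocyte (2 of 5 lower), fibroblast (2 of 7 lower, 1 higher) and endothelial markers (1 of 4 higher) were also read. Their array means were 4.93 to 5.05, 5.44 to 5.55, 5.61 to 5.70 and 4.50 to 4.64 in medium. At 25 µg/mL they were 4.98 to 5.09, 4.95 to 5.26, 5.27 to 5.31 and 4.74 to 4.90. In medium, 2 of 5 goblet cell, 2 of 5 leukocyte, 5 of 7 fibroblast and 2 of 4 endothelial markers lay at or above the median of all probe-set values. The part of the control and marker shifts in the members' differences was not tested.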

How the data were processed

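RNA of 12 samples was measured on 3' expression arrays, from 250 ng of RNA per sample made into biotin-labelled cRNA, per the labels' protocols. The authors deposited log2 values, 1 per probe set and array; the tools RMA and Partek stand in the submitters' processing notes, with versions and settings not given in the sources used here. Such normalization sets the arrays' distributions alike, so a change in total mRNA does not show, and no detection calls were used. Of 54675 probe sets, 41091 had 1 symbol in GEO's platform annotation, and each of 19775 genes was read from its brightest of these. The members and gene lists were chosen with earlier results of these data known.

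Tests used limma 3.58.1 (R 4.3.3), with all 12 arrays in 1 linear model of the 4 groups (8 residual degrees of freedom, plus 6.25 from the prior), two-sided tests of 6 contrasts, Benjamini-Hochberg adjustment over all genes and a threshold of 0.05. Errors of log2 differences are standard errors, and the number of arrays limits the precision. Values on every array are given for members that lead their role or moved least. From each list, the up to 3 called genes with the largest change at 25 µg/mL are named, with FOXM1, MYBL2, CDKN1A, CCNE2 and CCND1. No set test was made. Alternatives were quantile normalization, median centring, scaling on 24 poly-A or 18 hybridization control probe sets, no dim genes, other uses of a gene's probe sets, intensity-trend, unmoderated, array-weight and pairwise fits, an adjusted p under 0.01, and leaving out each array. Promoter letters come from RefSeq windows of GRCh38.p14, of which those of full length were searched. Figures were drawn with matplotlib 3.10.9.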

Additional observations from a re-analysis of the deposited data

How the results depend on the processing

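Of the 24 members called at 25 µg/mL against medium, quantile normalization, the filter on dim genes, the intensity trend, array weights and a fit of only the groups compared kept all 24 calls and directions, and 19 of the 22 falls stayed called without any 1 array. The mean of probe sets kept 20 and added a fall of KIF2C. Without each array in turn, 20 to 23 members were lower and 1 to 2 higher against medium, with medians from -0.51 to -0.42; 1 to 3 were higher against 2.5 µg/mL and 1 to 2 against AgNO3. The 2 members called higher against medium became 1 with median centring, the unmoderated test or an adjusted p under 0.01, and 0 under poly-A or hybridization scaling. Against 2.5 µg/mL the 3 higher became 0 under either scaling and 1 at an adjusted p under 0.01, and the 20 lower became 32 under poly-A scaling. Against AgNO3 the 2 higher became 0 under either scaling and 1 with the unmoderated test, array weights, only the groups compared or an adjusted p under 0.01, and the 21 lower became 33 under poly-A scaling.

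All 9 members above 0 against medium at 25 µg/mL turned negative under both scalings; by construction, each lowers all genes on the 25 µg/mL arrays. Under poly-A scaling the log2 differences against medium became -0.48 for PLK1, -0.57 for BUB1B, -0.50 for CDC20, -0.34 for BIRC5, -0.59 for CENPE, -0.59 for KIF14, -0.51 for KIF23, -0.19 for ECT2 and -0.28 for ANLN. Against 2.5 µg/mL they became -0.72 for PLK1, -0.70 for BUB1B, -0.63 for CDC20, -0.40 for BIRC5, -0.54 for KIF14, -0.67 for KIF23, -0.31 for ECT2 and -0.37 for ANLN. Against AgNO3 they became -0.77 for PLK1, -0.66 for CDC20, -0.51 for BIRC5, -0.77 for KIF14, -0.53 for KIF23, -0.23 for ECT2 and -0.46 for ANLN. Under hybridization scaling they became -0.30 for PLK1, -0.39 for BUB1B, -0.31 for CDC20, -0.40 for CENPE, -0.15 for BIRC5, -0.40 for KIF14, -0.32 for KIF23, -0.005 for ECT2 and -0.093 for ANLN against medium. Against AgNO3 they became -0.42 for PLK1, -0.42 for KIF14 and -0.11 for ANLN under it, while ECT2 stayed above 0 (0.12). These AgNO3 sign changes are only those of members called before or after this scaling, so others may be missing. Against 2.5 µg/mL, BIRC5 (0.002), ECT2 (0.097) and ANLN (0.027) stayed above 0 under hybridization scaling. No paired analysis was possible because the labels give no replicate numbers, only a letter of its own for each sample. The replicate numbers used here follow the order of the samples within each group and pair nothing between groups. Signal limits PLK1 and the dim probe sets most, since values near the median of all probe sets may partly read background.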
